A study of Bos taurus with 18 samples.

Results

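Proliferating bovine satellite cells from a serum-free growth medium (SFGM) were compared with satellite cells from a growth medium containing 20% fetal bovine serum (GM). Both were sampled at 0 h, before differentiation was started. The comparison rests on 6 of the 18 libraries of the series, replicates A, B and C of each medium, chosen by the medium and time in their labels. All 14637 genes that passed an expression filter, of 27607 identifiers counted, were tested. The cells came from Belgian Blue cattle and were grown on collagen-coated flasks in both media. Poly(A) RNA was sequenced with a stranded mRNA kit.

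The other 12 libraries were taken at 72 h and serve here to show where the same genes stood after differentiation. Cells from GM were differentiated in DM, a medium with 2% FBS. Cells from SFGM were moved to a serum-free base medium (SFB), to serum-free differentiation medium with DMEM/F-12 as its base (SFDM), or to the same with DMEM as its base (the DMEM group). Each of these groups also had 3 replicates, labelled as biological triplicates. Nothing in the labels says whether a letter marks an animal, a culture or a day, and the p-values cover only the spread between these libraries, which may be technical. The components of SFGM beyond the absence of serum are not stated in the labels, so the absence of serum cannot be told apart from whatever replaced it.

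Satellite cells are the stem cells of skeletal muscle. They lie quiet on the muscle fibre, divide as myoblasts when activated, and fuse into myotubes when growth signals are withdrawn. Serum provides cultured myoblasts with growth factors, lipids, carrier proteins and adhesion proteins, and lowering it is the usual way to start their fusion. A serum-free growth medium has to replace those signals with defined components. The count table lists genes by Ensembl identifier only, and no symbol could be matched to them here. The genes are therefore grouped by how their levels differed, and 4 identifiers are given in full. For the same reason the satellite cell identity given by the labels was not checked against marker genes.

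The 6 libraries held 24185902 to 28589018 counts, a narrow range of depth, and totals did not separate the media (exact two-sided permutation p = 0.4). Replicates lay 0.264 to 0.350 root mean square log2 units apart within GM and 0.268 to 0.293 within SFGM. Libraries of different media lay 0.741 to 0.778 apart. GM replicate C stood somewhat apart from the other GM libraries. A chi-square comparison of counts gave 14.9 and 11.7 per degree of freedom for its pairs with A and B, against 1.90 for A with B. In SFGM the pairs of replicate C were likewise the larger ones, with 5.395 for A with C and 8.45 for B with C, against 2.27 for A with B. All values were above 1, the sampling noise of repeat counts, and all libraries were kept as separate replicates. Among the 9075 genes with a mean of at least 10 CPM over both media, the median replicate SD was 0.09 log2 units in GM and 0.07 in SFGM. CPM is the usual depth-scaled read count, here with library totals scaled by the trimmed mean of M-values (TMM).

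The 2 growth media differed in 5701 genes, 38.9% of those tested, with 2863 genes higher in SFGM (19.6%) and 2838 lower (19.4%). The test was edgeR's quasi-likelihood test with Benjamini-Hochberg adjustment at 0.05, fitted to all 18 libraries. Although the numbers in each direction were alike, the sizes were not. The median gene that was higher in SFGM differed 1.71-fold, and the median gene that was lower differed 1.41-fold. At least 2-fold differences were found for 1077 higher genes (7.36% of those tested) and 561 lower genes (3.83%). At least 8-fold differences numbered 112 higher and 77 lower. Of the lower genes, 59.2% differed by less than 1.5-fold, and of the higher genes 36.1%. Tested against a 2-fold difference instead of none, 572 genes were higher and 293 lower, a choice made after the data were seen. In bulk RNA, a change in the share of cells that express a gene and a change in RNA per cell cannot be told apart.

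Libraries of the 2 media did not overlap for 8330 genes (56.9% of those tested). SFGM was above every GM library for 4034 of them (27.6%) and below for 4296 (29.4%). The unadjusted p was under 0.05 for 6815 genes (46.6%). Many genes were also measured precisely enough to bound their difference. For 6970 genes (47.6%), the 95% interval of the difference, taken gene by gene without adjustment, lay wholly inside 1.5-fold in either direction. Of the 6970 genes, 1458 had passed the test all the same, so part of the calls are differences that are well measured and small.

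**Figure D1:**
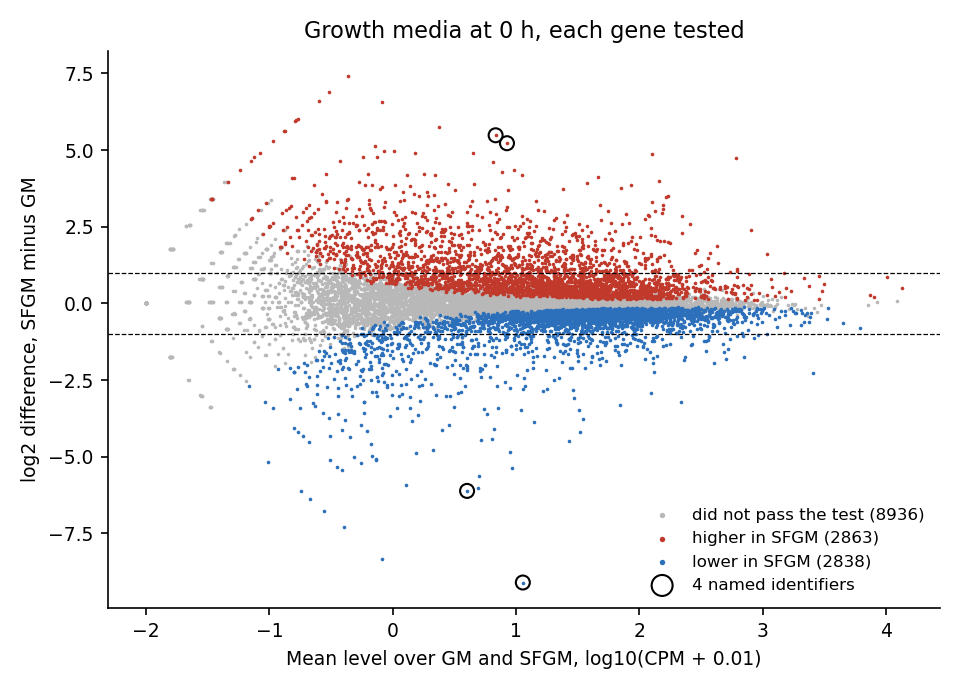
Each point is a gene tested; the x axis is its mean level over the GM and SFGM libraries, as log10(CPM + 0.01), and the y axis its log2 difference, SFGM minus GM. Red points are the 2863 genes higher in SFGM, blue points the 2838 lower and grey points the 8936 that did not pass the test; dashed lines mark 2-fold differences, beyond which red points (1077) outnumber blue ones (561), and rings mark the 4 named identifiers.

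Genes were also divided by read abundance, which reflects transcript length as well. Genes averaging 1 to 10 CPM over all 18 libraries were more often higher in SFGM (758) than lower (552). With TMM scaling, 1410 were higher and 1542 lower at 10 to 100 CPM and 436 higher and 515 lower at 100 to 1000 CPM. Scaling by totals alone turned that balance, to 1556 higher and 1359 lower and to 461 higher and 454 lower, so no direction is given for these classes. Of the 89 genes above 1000 CPM, 33 were higher and 26 lower. Differences of at least 2-fold were more often higher in SFGM in each of the 5 level classes under TMM, RLE and totals scaling, with 206 against 184 below 1 CPM, 387 against 197 at 1 to 10 CPM, 371 against 139 at 10 to 100 CPM, 107 against 39 at 100 to 1000 CPM, and 6 against 2 above that with TMM. Precision grew with abundance: the median half-width of the 95% interval fell from 0.96 log2 units below 1 CPM to 0.16 above 1000 CPM. The share of genes that passed the test went from 23.8% to 66.3% over the same classes. The part of precision in these shares, and the difference between the classes, was not tested.

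**Figure D2:**
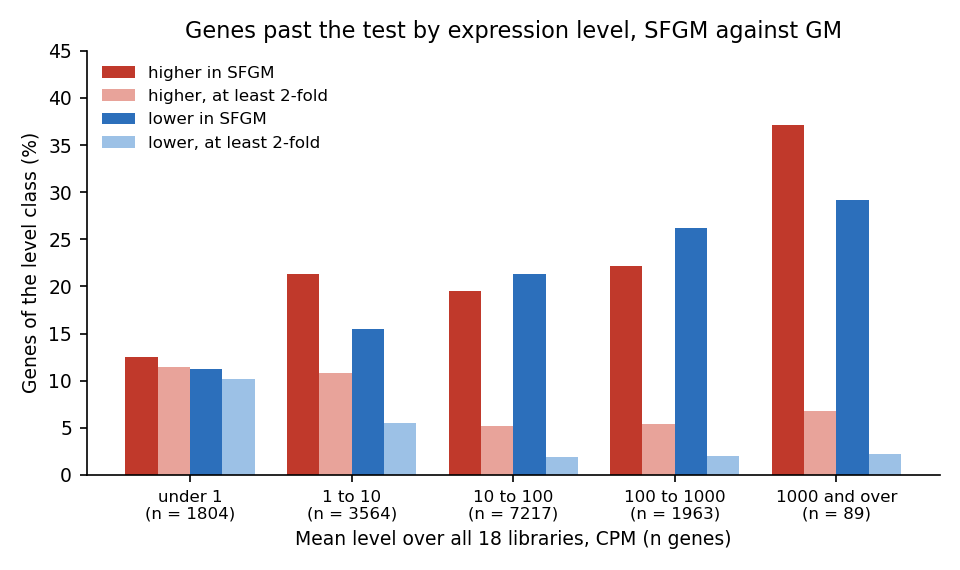
Bars give the percentage of genes in each level class (x axis, mean CPM over all 18 libraries, with the number of genes) that were higher (red) or lower (blue) in SFGM, and the part that differed at least 2-fold (pale bars). Pale red bars exceed pale blue bars in every class, while blue bars exceed red ones at 10 to 100 and 100 to 1000 CPM with the TMM scaling drawn here, a balance that turns with scaling by totals alone.

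The most abundant transcripts were largely common to both media. Of the 10 most abundant identifiers of each medium 8 were shared, of the 100 most abundant 86, and of the 1000 most abundant 862. Among the 114 identifiers in the first 100 of either medium, 30 were higher in SFGM (26.3%, against 19.6% of all genes tested) and 46 lower (40.4%, against 19.4%). At least 2-fold differences were found for 4 in each direction (3.51%, against 7.36% of all genes tested for higher and 3.83% for lower). These counts are given for TMM scaling alone, and no direction is drawn from them. The 10 most abundant identifiers accounted for 8.05% ± 0.183 of the counts in GM and 9.11% ± 0.272 in SFGM (SD, n = 3 each). The libraries of the 2 media did not overlap in this share (exact two-sided permutation p = 0.1, the smallest that 3 against 3 libraries allow). SFGM libraries also held fewer genes above 1000 CPM, 78.3 ± 1.53 against 89.7 ± 3.06, and more genes at 1 CPM or above, 12513 ± 36.2 against 12372 ± 50.6. Both differences again had an exact permutation p of 0.1 without overlap. Both numbers of genes depend on the TMM factors, which were 1.031 to 1.041 in GM and 1.057 to 1.065 in SFGM, and are given for this scaling alone.

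Near-exclusive expression was rare. With limits of under 1 CPM in GM and 10 CPM or more in SFGM, 5 identifiers were found, at 12.6 to 18.4 CPM in SFGM. With the limits reversed there were 6, with 10.7 to 22.6 CPM in GM. None of these was without any count in the other medium. Of the 5 SFGM identifiers, 0 reached 10 CPM in DM, 1 did in SFB, 1 in SFDM and 2 in DMEM. Of the 6 GM identifiers, 1 reached 10 CPM in DM and 0 in the serum-free media at 72 h.

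The named identifiers are the 2 highest and 2 lowest differences among 4487 that passed the test, averaged 5 CPM or more in the higher medium and showed no overlap between the libraries. Their differences between GM and SFGM chose them and are given as a description.

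ENSBTAG00000000983 stood at 0.412, 0.136 and 0.334 CPM in GM replicates A, B and C and at 14.4, 11.7 and 13.8 CPM in SFGM. Every SFGM library was far above every GM library, a 45.4-fold difference of the means (log2 difference 5.48, SE 0.34, edgeR adjusted p = 1.27e-09). At 72 h the level was low in all media. It stood at 0.682 ± 0.286 CPM in DM, 0.469 ± 0.154 in SFB, 1.28 ± 0.186 in SFDM and 2.21 ± 0.981 in DMEM (SD, n = 3 each). The difference from DM passed the test in DMEM (edgeR adjusted p = 0.000687) but not in SFDM (edgeR adjusted p = 0.0792, log2 difference 0.88 with a 95% interval of 0.05 to 1.71) or SFB (edgeR adjusted p = 0.343). The lowest SFGM library, at 11.7 CPM, lay above the highest library of the other 5 media, DMEM replicate A at 3.17 CPM.

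ENSBTAG00000013148 stood at 0.377, 0.341 and 0.594 CPM in GM and at 17.0, 15.3 and 17.0 CPM in SFGM. The means differed 37.5-fold without overlap (log2 difference 5.23, SE 0.20, edgeR adjusted p = 2.81e-12). At 72 h it remained above DM in each serum-free medium. DM had 2.02 ± 0.537 CPM, SFDM 3.87 ± 0.494, SFB 5.55 ± 0.232 and DMEM 10.7 ± 1.01. The edgeR adjusted p-values were 0.00046 for SFDM, 1.64e-06 for SFB and 2.89e-09 for DMEM. No serum-free library at 72 h fell into the range of the DM libraries, and all lay below the SFGM libraries.

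ENSBTAG00000018571 showed the widest gap of the named identifiers, with 25.3, 21.9 and 20.8 CPM in GM. In SFGM it had 3 counts in replicate B and 0 in A and C. By summed counts, 1939 against 3, it was 626-fold lower in SFGM, with an exact 95% interval of 214 to 3040 that covers counting error only (edgeR adjusted p = 6.66e-12). All 3 counts came from replicate B, and without that library no count is left in SFGM, which makes the level at least 396-fold lower against a floor of 3 counts over the other two libraries. It was also low after serum-based differentiation, at 1.37 ± 0.282 CPM in DM, and lower still in the serum-free media at 72 h. These had 0.0587 ± 0.0560 CPM in SFDM, 0.111 ± 0.0866 in SFB and 0.311 ± 0.0245 in DMEM. Each passed the test against DM, with edgeR adjusted p-values of 3.09e-06, 3.58e-06 and 9.35e-05. The highest level was thus in GM, and in every serum-free library it was below every library with FBS.

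ENSBTAG00000008739 stood at 7.89, 8.08 and 7.68 CPM in GM and at 0.0777, 0.0993 and 0.149 CPM in SFGM, from 2, 3 and 4 counts. The means differed 72.5-fold (log2 difference -6.12, SE 0.30, edgeR adjusted p = 7.88e-11). DM had 7.17 ± 1.70 CPM, which did not pass the test against GM (edgeR adjusted p = 0.498, log2 difference -0.14 with a 95% interval of -0.51 to 0.23). The serum-free media stood at 0.542 ± 0.0754 CPM in SFB, 1.43 ± 0.325 in SFDM and 2.94 ± 0.763 in DMEM, all below every DM library. The edgeR adjusted p-values against DM were 1.09e-09, 1.44e-07 and 2.53e-05. It was high in both media with FBS, and no serum-free library reached the range of theirs.

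**Figure D3:**
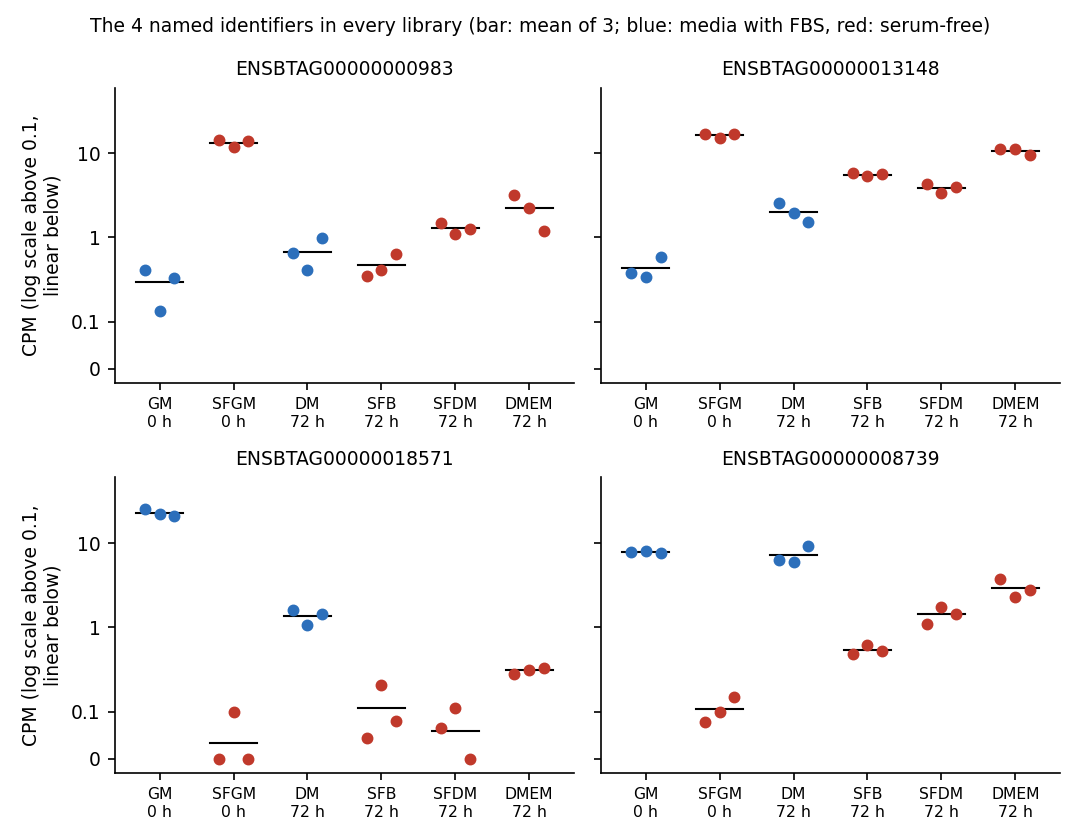
Each panel shows 1 named identifier, with the CPM of every library (points, replicates A, B and C from left to right) and the mean of 3 (bar) in the 6 media; the y axis is logarithmic above 0.1 CPM and linear below. Blue points are media with FBS and red points serum-free media. The 2 upper identifiers are highest in SFGM (13.3 and 16.4 CPM on average) and the 2 lower ones highest in GM (22.6 and 7.88 CPM).

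The 72 h libraries were then used as a readout that the 0 h comparison had not used. They did share its expression filter, scaling and estimate of spread, and the cells came from the 2 growth media. The differences between the growth media were found in part at 72 h as well. Of the 1077 genes at least 2-fold higher in SFGM, 452 were higher in SFDM than in DM (42%) and 251 lower (23.3%), and the median log2 difference was 0.30. Over all genes tested 21.7% were higher in SFDM and 23.7% lower, with a median of -0.03. In DMEM against DM, 538 of the 1077 genes were higher (50%, against 24.9% of all genes tested) and 228 lower (21.2%, against 24.5%), with a median of 0.49. In SFB against DM, 437 were higher (40.6%, against 27.9%) and 327 lower (30.4%, against 27.2%), with a median of 0.15. These 3 comparisons share the DM libraries. In either direction, SFDM differed from DM in 45.3% of all genes tested, DMEM from DM in 49.4% and SFB from DM in 55.1%.

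The 561 genes at least 2-fold lower in SFGM were mostly on the same side at 72 h where they passed the test. Of them 258 were lower in SFDM than in DM (46%, against 23.7% of all genes tested) and 97 higher (17.3%, against 21.7%). The median log2 difference was -0.60. DMEM was below DM for 247 of the genes (44%, against 24.5% of all genes tested) and above for 103 (18.4%, against 24.9%), with a median of -0.44. SFB was below for 261 (46.5%, against 27.2%) and above for 105 (18.7%, against 27.9%), with a median of -0.56. In all 3 serum-free media, 166 of the 561 genes were below DM (29.6%), where 11.2% of all genes tested were. Of the 1077 genes higher in SFGM, 303 were above DM in all 3 media (28.1%), again against 11.2%.

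Larger differences at 0 h went with a larger part on the same side at 72 h. For the 366 genes at least 4-fold higher in SFGM, the median SFDM against DM difference was 0.85, and for the 190 genes at least 4-fold lower it was -1.09. For all 2863 higher and 2838 lower genes it was 0.06 and -0.05, close to the median of all genes tested. Across all 14637 genes, the difference at 0 h and the difference at 72 h correlated weakly. For SFDM, Pearson's r was 0.225 and rank correlation (Spearman's rho) 0.084. For DMEM r was 0.274 and rho 0.174, and for SFB r was 0.165 and rho 0.040. None of these pairs shares a library, genes are not independent replicates, and no p is given.

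**Figure D4:**
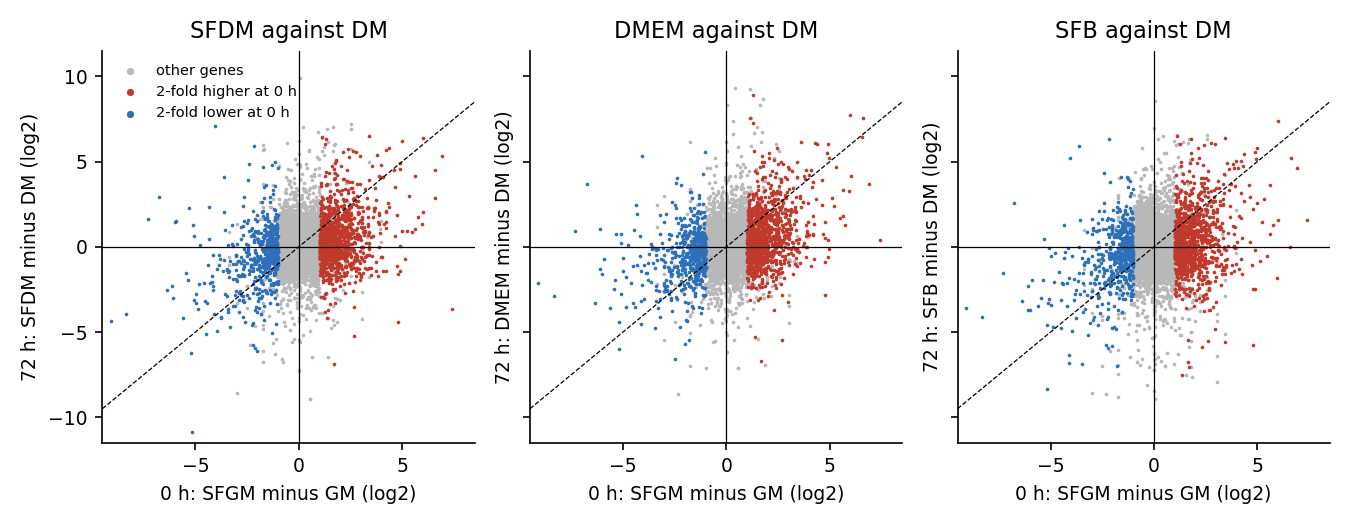
Each point is a gene tested, with its log2 difference SFGM minus GM at 0 h (x axis) and its log2 difference from DM at 72 h (y axis) in SFDM, DMEM and SFB. Red points are the 1077 genes at least 2-fold higher in SFGM, blue points the 561 lower and grey points the other genes; the dashed line marks equal differences. In each panel coloured points lie on both sides of the horizontal line, with medians of 0.30, 0.49 and 0.15 for red and -0.60, -0.44 and -0.56 for blue.

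As groups, the genes higher and lower in SFGM kept different patterns of level over the 6 media. The median level of the 1077 higher genes was 1.51 to 1.64 CPM in the GM libraries and 5.30 to 5.45 in SFGM, the contrast that chose them. At 72 h it was 3.97 to 4.56 CPM in DM, 5.67 to 6.30 in SFB, 6.89 to 7.51 in SFDM and 7.38 to 8.51 in DMEM. Each serum-free group lay above DM without overlap (exact two-sided permutation p = 0.1, the smallest possible, for each). Their summed share of the counts went the other way. It was 1.45% ± 0.018 in GM, 4.59% ± 0.033 in SFGM and 6.69% ± 0.138 in DM, against 5.99% ± 0.020 in SFDM, 5.98% ± 0.099 in DMEM and 4.62% ± 0.110 in SFB, all below DM without overlap (exact permutation p = 0.1 for each). The 10 most abundant of the 1077 genes made up 32.9% of the group's counts in DM and 29% in SFDM, against 14.3% in SFGM. Among those 10, 3 were higher and 4 lower in SFDM than in DM.

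For the 561 lower genes, median and sum moved alike. The median level was 4.25 to 4.50 CPM in GM and 1.09 to 1.16 in SFGM, and at 72 h 2.67 to 3.04 in DM, 1.54 to 1.61 in SFB, 1.86 to 1.98 in SFDM and 1.71 to 1.92 in DMEM. The share of counts was 3.31% ± 0.025 in GM, 1.20% ± 0.006 in SFGM, 2.22% ± 0.048 in DM and 1.70% ± 0.026 in SFDM. The serum-free groups lay below DM by both measures without overlap, each with an exact permutation p of 0.1.

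**Figure D5:**
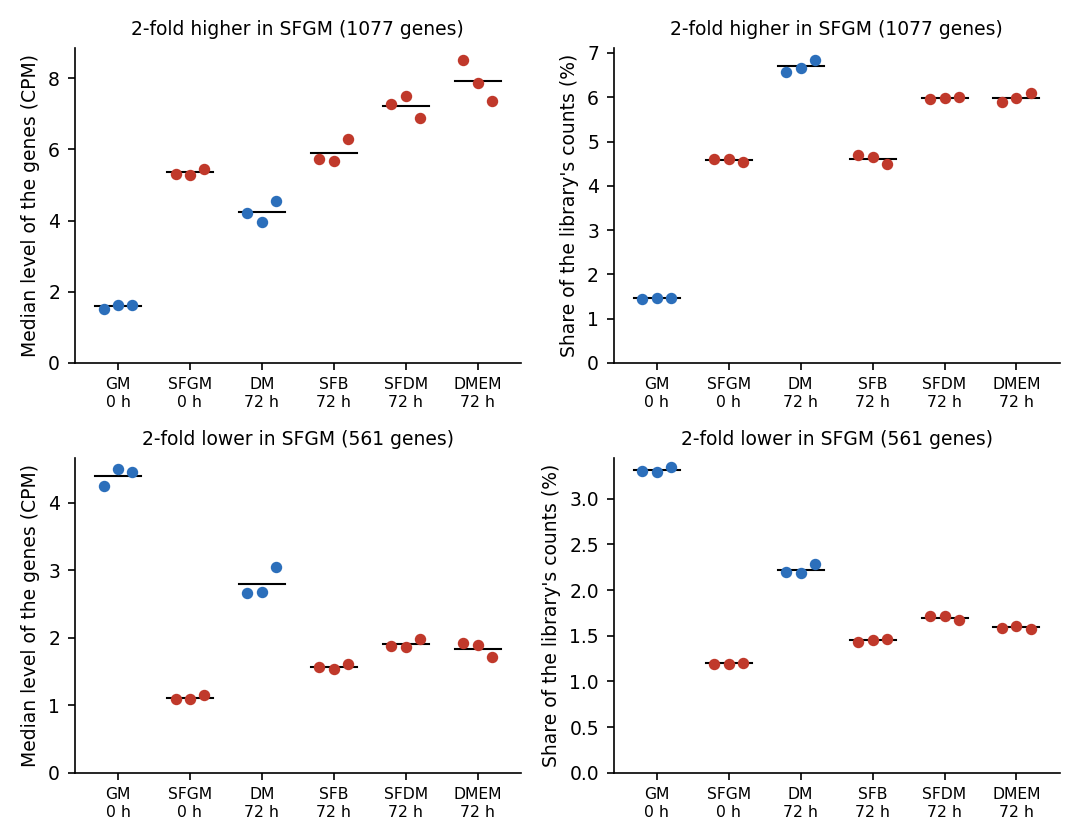
Points are libraries (replicates A, B and C from left to right) and bars the means of 3, for the 1077 genes at least 2-fold higher in SFGM (top) and the 561 at least 2-fold lower (bottom); the left panels give the median level of the genes in CPM and the right panels their summed share of the library's counts. Blue points are media with FBS. For the higher genes the serum-free media at 72 h lie above DM by the median (3.97 to 4.56 CPM in DM) and below it by the share (6.69% in DM).

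The groups divided further by their behaviour at 72 h, and these divisions are descriptions because the 72 h test made them. The 452 genes higher in both SFGM and SFDM had a median of 1.74 CPM in GM and 2.57 in DM, against 7.16 in SFGM, 7.66 in SFB, 9.12 in SFDM and 9.51 in DMEM. The low medians were in both media with FBS, as the choice requires for 0 h and for SFDM against DM. The 251 genes higher in SFGM but lower in SFDM than in DM started at 3.62 CPM in GM and 12.1 in SFGM. They stood at 25.9 CPM in DM and 10.7 in SFDM, with 22.5 in DMEM. The 258 genes lower in both SFGM and SFDM had medians of 8.07 CPM in GM and 7.30 in DM, against 1.81 in SFGM and 2.31 in SFDM. The 97 genes lower in SFGM but higher in SFDM had 9.26 CPM in GM and 2.58 in DM, against 2.7 in SFGM and 8.28 in SFDM.

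Whether the difference itself changed between 0 h and 72 h was tested with the interaction of medium and time, SFDM minus DM against SFGM minus GM. Between the times FBS fell from 20% to 2% in the serum arm, and both arms changed medium. These changes cannot be told apart from time. The interaction passed in 5841 genes, 39.9% of those tested, with a higher log2 difference at 72 h for 19% and a lower one for 20.9%. Of the 1077 higher genes, 694 had a lower log2 difference at 72 h, 69 had a higher one and 314 did not pass. Of the 561 lower genes, 304 had a higher log2 difference, 30 had a lower one and 227 did not pass. Genes chosen for a large difference at 0 h are favoured to show a smaller one later, because the 0 h libraries enter both. In these 2-fold groups, calls in the opposite direction in SFDM against DM were no more frequent than over all genes. Among the 1077, 251 were lower in SFDM than in DM (23.3%, against 23.7% of all genes tested). Among the 561, 97 were higher (17.3%, against 21.7%). Without the 2-fold limit such calls were more frequent than over all genes. Of the 2863 higher genes 27.2% were lower in SFDM than in DM, and of the 2838 lower genes 27.5% were higher. Calls on the same side were more frequent too, at 34.1% of the higher and 32.3% of the lower genes. Precisely measured genes can pass more readily at both times, and the part of precision in these shares was not tested.

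The time course of each arm is given side by side, since each shares its 0 h libraries with the comparison of growth media. From GM to DM, 680 of the 1077 higher genes rose and 191 fell, with a median log2 change of 1.33, where 34.2% of all genes tested rose and 35.5% fell. From SFGM to SFDM, 418 rose and 443 fell, with a median of -0.10, where 28% of all rose and 33.4% fell. In both arms 391 rose (36.3%, against 21.1% of all genes tested) and 165 fell (15.3%, against 24.1%). Of the 561 lower genes 328 fell and 108 rose from GM to DM, with a median of -0.93, while 142 fell and 224 rose from SFGM to SFDM, with a median of 0.33. The choice of high SFGM values favours a rise from GM and a fall from SFGM, and the reverse for low ones.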

How the data were processed

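The deposited values are counts, whole numbers of reads per Ensembl gene identifier in each library. The submitters' processing notes name STAR 2.7, featureCounts and bosTau9. The annotation release and strand setting were not given in the sources used. Overlapping, antisense and near-identical genes may therefore share reads. The 18 columns were matched to samples by their labels. Genes were kept by filterByExpr (minimum count 10, minimum total 15) and scaled by TMM in R 4.3.3 with edgeR 4.0.16. A robust quasi-likelihood model with 1 coefficient for each group took in all 18 libraries, and each two-sided contrast was adjusted by Benjamini-Hochberg over 14637 genes. The 3-count floor over a group was 0.0351 CPM in GM and 0.0363 in SFGM, covering counting error only. Standard errors and 95% intervals were derived from the F statistics. The test was tried on simulated counts.

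The reference table held 37063 genes of the ARS-UCD2.0 assembly and 0 matched an identifier, so 40 symbol lists with 980 genes were not analysed here, and no sequence is printed. The named identifiers are the 2 highest and 2 lowest log2 differences with adjusted p under 0.05, at least 5 CPM in the higher medium and no overlap. The comparison, the groups and the rules were chosen with earlier results of these data known. Alternatives were other scalings and filters, DESeq2 1.42.0, a fit of only the compared groups, a block for the replicate letter, and each library left out. Libraries A, B and C deviated together with their namesakes between GM and DM (correlations across genes of 0.131, 0.184 and 0.426). They also did between DM and SFB (0.166, 0.377 and 0.558). In these 2 comparisons the letters were treated as pairs only in the alternative fits with a block. The values reported for them come from the fit without a block. The correlations were negative between DM and SFDM (-0.0802, -0.102 and -0.415) and between DM and DMEM (-0.224, -0.0226 and -0.52). Those between SFGM and SFDM were negative as well (-0.0437, -0.0397 and -0.223). Different letters were compared only between GM and SFGM, so whether the letters mark pairs elsewhere was not tested.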

Additional observations from a re-analysis of the deposited data

Results flagged for a closer look

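The serum-free minus serum difference changed between 0 h and 72 h (SFDM against DM) in 5841 genes, 39.9% of those tested, by edgeR's interaction test with adjusted p under 0.05. All 4 named identifiers were among them, and each was flagged because its change passed this test. The difference of each was smaller at 72 h than at 0 h. The log2 difference of ENSBTAG00000000983 changed by -4.61 (95% interval -5.81 to -3.40, edgeR adjusted p = 5.49e-06), from 5.48 to 0.88. For ENSBTAG00000013148 the change was -4.31 (-4.90 to -3.72, edgeR adjusted p = 2.13e-09), from 5.23 to 0.92. ENSBTAG00000018571 changed by 4.76 (2.01 to 7.51, edgeR adjusted p = 0.00742), from -9.10 to -4.34, with 3 counts in SFGM and 4 in SFDM behind it. This value rests on single libraries. Without SFDM replicate B it was 3.70 and did not pass the test (edgeR adjusted p = 0.22), and without SFGM replicate B, which leaves no count in SFGM, the fitted change was 7.79 (edgeR adjusted p = 0.00123). For ENSBTAG00000008739 the change was 3.83 (2.92 to 4.74, edgeR adjusted p = 1.82e-06), from -6.12 to -2.29. Choosing identifiers by their extreme difference at 0 h favours a smaller difference at 72 h, and how much of the change this makes up was not tested.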

How the results depend on the processing

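The count of 5701 genes that differed between SFGM and GM stayed within 1.5 times under RLE scaling (5702), totals alone (5623), no filter (5485), a stricter filter (5351), DESeq2 (6044), only the compared groups (7150), thinning to the smallest library (5274), and leaving out each GM or SFGM library (4800 to 5210). No gene called in both the reported fit and one of these alternatives changed sign. In these, higher genes made up 48.6% (DESeq2) to 54.9% (totals alone) of the calls, against 50.2%. Scaling by totals shifted the median by 0.03 log2. With a replicate block in all 18 libraries 5507 genes were called. With the replicate block and only the compared groups, 8716 genes were called in SFGM against GM (4328 higher, 4388 lower), 3855 in SFDM against DM, 3674 in DMEM against DM and 9956 in SFB against DM (6635, 7233 and 8065 without it), and the cause was not tested. Deviations of same-letter GM and SFGM libraries from their group means correlated at 0.0746, 0.104 and 0.225 across genes for A, B and C, under 0.1 for A, so the letters were not taken to pair these libraries. GM replicate A correlated better with SFGM replicate B (0.115). The other correlations between different letters were lower than any between the same letters, from -0.175 to 0.00714. Whether the letters pair these libraries in part was therefore not settled. Tested against a 1.5-fold difference, 1696 genes were called (1102 higher, 594 lower), and against a 2-fold difference 865 (572 higher, 293 lower), since a larger difference is asked for. Apart from these tests against a fold, the 2-fold groups ranged from 895 to 1146 higher genes and 379 to 617 lower genes. Without the 2-fold limit, 976 of the genes higher at 0 h were higher and 779 lower in SFDM than in DM, and 781 and 917 of those lower at 0 h, because the groups are larger. The differences of the 4 named identifiers at 0 h kept direction and call in each alternative run for them, and their changes to 72 h kept the call with each library left out except ENSBTAG00000018571 without SFDM replicate B (3.70, edgeR adjusted p = 0.22). Between DM and SFB and between GM and DM, where same-letter libraries deviated together, the reported fit had no block. Adding the block there moved no count by over 1.5 times. For GM and DM it gave 10064 calls with all 18 libraries and 11273 with only these groups, against 10199. Gene lists could not be run without symbols. Thinning, the tests against a fold, the second pair of level limits (5 and 7 genes in place of 5 and 6) the groups without a fold limit, the level classes under other scalings, the changes with a library left out and the block in the time courses were chosen after seeing the data. Depth limits genes below 1 CPM, with a median half-interval of 0.96 log2 units.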

Other observations

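Some genes that did not pass the test between the growth media passed it at 72 h, in a smaller share than over all genes. The interaction and SFDM against DM both passed in 1959 such genes (21.9% of the 8936, against 28.7% of all genes tested), 902 of them higher in SFDM and 1057 lower. A smaller share is favoured here, because the interaction contains the small 0 h difference by which these genes were chosen. The part of precision was not tested, and this share too is a description. Of the genes that differed between the growth media, 1373 did not pass the test at 72 h while the change itself passed (24.1%, against 11.2% of all genes tested). The change contains the 0 h difference that chose these genes, which favours a larger share, so the share is a description. Of the 2863 genes higher in SFGM, 34.1% were higher in SFDM than in DM and 27.2% lower, against 21.7% and 23.7% of all genes tested. Of the 2838 lower genes, 32.3% were lower at 72 h and 27.5% higher. Both groups thus had more calls in either direction than all genes tested, and the part of precision in this was not tested.

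Genes called in opposite directions at the 2 times, with a change that also passed, took different courses. Of the 779 higher in SFGM than GM and lower in SFDM than DM, 269 rose in both arms (34.5%, against 21.1% of all genes tested) and 222 rose from GM to DM but fell from SFGM to SFDM (28.5%, against 2.94%). Of the 781 called the other way round, 448 fell in both arms (57.4%, against 24.1%) and 116 fell from GM to DM but rose from SFGM to SFDM (14.9%, against 1.93%). The tests that chose these genes use the same libraries and favour these courses, so the shares are a description.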
